A study of Mus musculus with 15 samples.

Results

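The brain of 12-month-old APP-PS1 mice given PBS was compared with that of wild-type (WT) mice of the same age given PBS. The comparison takes 10 of the 15 libraries of the study, chosen by their labels: 5 APP-PS1 mice and 5 WT mice, each mouse giving 1 library. APP-PS1 mice, used to model Alzheimer's disease, carry a Swedish mutant of the amyloid precursor protein (APP), part mouse and part human in sequence, together with a further transgene, both driven in neurons of the central nervous system by a prion protein promoter. PBS was injected at 100 µL for 4 weeks in both groups, as the control of an antibody against CD8a given to the other 5 APP-PS1 mice of the study. RNA came from a dissected part of 1 hemisphere whose name was not given in the sources used here, and poly(A) RNA was sequenced. Where both groups are given library by library, the values run from replicate 1 to replicate 5, and the replicate number only names a mouse.

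Amyloid peptide is cut from APP by beta-secretase and then gamma-secretase. Around amyloid plaques, microglia, the resident macrophages of the brain, take on a state known as disease-associated, in which the lipid receptor TREM2 and its adaptor TYROBP are needed for the full response and genes of phagocytosis, lysosomes and lipid handling are switched on. Astrocytes near plaques become reactive, and neurons can lose synapses and change their activity.

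Gene counts per library summed to between 17736524 (APP-PS1 replicate 5) and 35785584 (WT replicate 5), so that 3 counts stood for 0.0838 to 0.169 CPM (counts relative to library size), a limit that covers counting error only. Ttr, which the choroid plexus makes in large amounts, exceeded 1000 CPM in WT replicates 3 and 5 and in APP-PS1 replicates 2 and 5, and was at most 107.5 CPM in the other 6 libraries; 1 library of the third group of the study also exceeded it, which makes 5 of 15. The labels give 4 females and 1 male among WT mice and 2 females and 3 males among APP-PS1 mice, but the library labelled APP-PS1 replicate 1, labelled male, had 1922 CPM of the female transcript Xist and 2.08 CPM of Y-linked genes. Neuronal, astrocytic and oligodendrocytic markers were all present, with Rbfox3, which encodes the neuronal protein NeuN, at 176 ± 14.4 CPM in WT and 152 ± 15.6 CPM in APP-PS1 mice (SD, n = 5 each) and Mbp, a myelin protein, at 2196 ± 307 and 2228 ± 224 CPM. In the test described next, 0 genes of the cerebellar, hypothalamic, thalamic, striatal, cortical or hippocampal neuron lists passed in edgeR; unadjusted p values under 0.05 numbered 2, 2, 0, 0, 2 and 4, and DESeq2 called 1 hypothalamic and 2 hippocampal genes.

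Of 18974 genes tested with edgeR's quasi-likelihood test, 195 passed an adjusted p of 0.05 (1.03% of those tested), 178 higher (0.938%) and 17 lower (0.0896%) in APP-PS1 mice. The median log2 fold change of the genes called higher was 0.93, that of the genes called lower was -0.47, and that of all genes tested was -0.01. Of the genes called higher 75 were more than 1 log2 unit higher, and of those called lower 3 were more than 1 log2 unit lower. For 176 of the 195 the ranges of the 5 WT and 5 APP-PS1 libraries did not overlap (163 higher and 13 lower), against 2.89% of all genes tested (1.83% higher and 1.06% lower). The genes called were 185 protein-coding genes and 10 of other kinds, and 89 of them belonged to one of 49 lists of cell types and pathways. The plot of fold change against level shows how unevenly the calls fall above and below 0. With sex read from Xist and the Y-linked genes in place of the label 166 genes were called higher and 17 lower, without APP-PS1 replicate 1, whose label goes against them, 164 and 20, and with no sex covariate 102 and 13. The reported model was fitted on all 15 libraries of the study. Fitted on only the 10 libraries of both groups, it called 174 genes higher and 18 lower. Of these, 153 and 10 were among the reported calls. In DESeq2 361 genes passed (280 higher and 81 lower). Without the 5 libraries above 1000 CPM of Ttr 98 passed, 97 of them higher, and without APP-PS1 replicate 4 the calls were 133 higher and 120 lower.

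**Figure D1:**
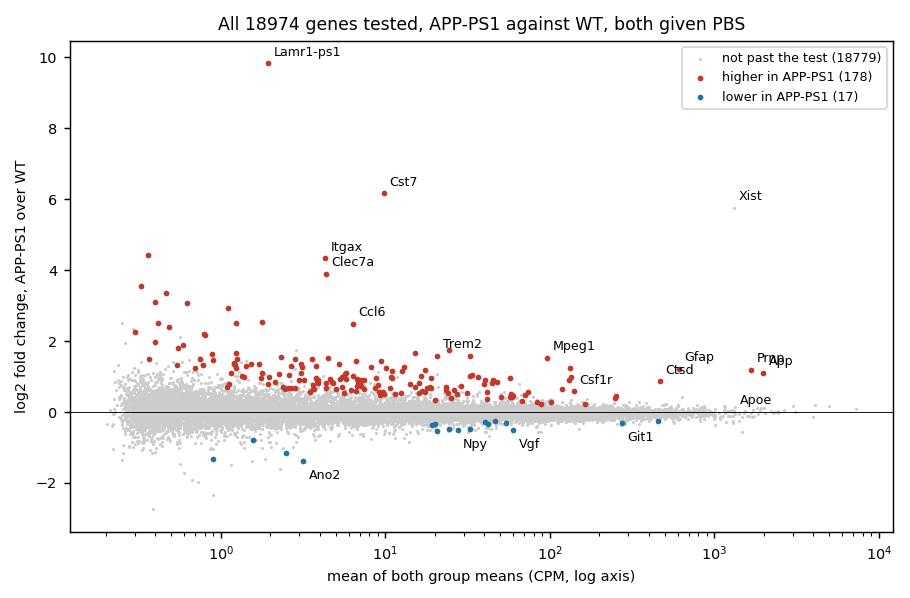
Log2 fold change (APP-PS1 over WT, edgeR) against the mean of both group means in CPM on a log axis, with 1 point for each of the 18974 genes tested. The 178 genes called higher (red) reach up to 6.17 on the log2 scale (Cst7), leaving aside Lamr1-ps1, whose fitted value is no bound because its WT counts are 0, and the 17 called lower (blue) reach down to -1.39 (Ano2); Xist is the grey point near the top right, whose fitted value rests on a sex label that goes against its level.

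App, Prnp and a pseudogene beside Prnp were among the genes most clearly separated between the groups. App, at chromosome 16, 84949685 to 85173766 (positions throughout are GRCm38, GENCODE M21), lay at 1230, 1233, 1245, 1324 and 1288 CPM in WT mice and at 3036, 2625, 2785, 2701 and 2420 CPM in APP-PS1 mice. Each APP-PS1 library was thus well above the highest WT library, and the log2 fold change was 1.11 (SE 0.08) with an adjusted p of 7.55e-07 in edgeR. Reads of the mouse and the transgene-derived part of App are not separated in these counts.

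Prnp, the gene of the prion protein, whose promoter drives the transgenes, lies at chromosome 2, 131909928 to 131938429. It was at 1046, 1064, 1046, 1033 and 980.1 CPM in WT and 2630, 2167, 2354, 2282 and 2201 CPM in APP-PS1 mice, with no overlap and an edgeR log2 fold change of 1.19 with an SE of 0.08 (adjusted p = 3.49e-07). The processed pseudogene Lamr1-ps1, at chromosome 2, 131904086 to 131904959, just before Prnp on the chromosome, had 0 counts in every WT library and 129, 125, 93, 134 and 50 counts in the APP-PS1 libraries. The floor of 3 counts for the WT group as a whole makes it at least 198-fold higher. If the transgenes carry sequence of Prnp or Lamr1-ps1, its reads are not separated from those of the mouse genes in these counts. Of the 20 genes of APP and its processing, App and Prnp passed, both higher, and none lower. Among the members that did not pass, Mme, the amyloid-degrading protease neprilysin, had an estimate of 0.38 (adjusted p = 0.132), Aplp1, an APP relative, -0.19 (adjusted p = 0.204) and Adam17, an alpha-secretase, 0.16 (adjusted p = 0.443, all edgeR).

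Genes of disease-associated microglia were among those with the largest changes. Of 31 members tested 16 were called higher and none lower (51.6%, against 0.938% of all genes tested), and their median log2 fold change was 0.88 against -0.01 over all genes. Lilrb4a, a further member that is also in the list of inhibitory receptors, matched no gene by symbol and is left out of the counts of both lists. Whether a gene tested under another symbol stands for it was not checked. More microglia and more RNA of these genes per microglial cell cannot be told apart in these bulk samples. Cst7, which encodes cystatin F, an inhibitor of lysosomal cysteine proteases, lies at chromosome 2, 150570415 to 150578944. It was at 0.411, 0.29, 0.231, 0.424 and 0.394 CPM in WT mice and at 18, 13.1, 15.3, 31.6 and 18.3 CPM in APP-PS1 mice, an edgeR log2 fold change of 6.17 with an SE of 0.40 (adjusted p = 3.49e-07). WT mice were thus close to the level of a few reads, while the lowest APP-PS1 library was at 13.1 CPM, and APP-PS1 replicate 4 stood above the other 4.

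Itgax encodes CD11c, the alpha chain of an integrin of phagocytes, and lies at chromosome 7, 128129547 to 128150657. It had 0.569, 0.616, 0.462, 0.508 and 0.506 CPM in WT and 7.87, 5.33, 6.28, 13.1 and 7.84 CPM in APP-PS1 mice, an edgeR log2 fold change of 4.34 with an SE of 0.37 (adjusted p = 8.29e-06). Again replicate 4 was highest and replicate 2 lowest among APP-PS1 mice, and the groups did not overlap. Clec7a encodes dectin-1, a receptor for fungal glucans (chromosome 6, 129461591 to 129472779). Its values were 0.948, 0.725, 0.318, 0.551 and 0.562 CPM in WT and 8.07, 5.47, 7.11, 9.49 and 10.3 CPM in APP-PS1 mice, an edgeR log2 fold change of 3.90 with an SE of 0.26 (adjusted p = 3.53e-07). Here replicate 5, not replicate 4, was the highest of the APP-PS1 group.

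The lipid receptor Trem2 (chromosome 17, 48346401 to 48354147) was nearly constant in WT mice, at 11.2, 11.6, 11.4, 11.4 and 10.8 CPM, and varied more in APP-PS1 mice, at 33.7, 22.4, 24.3, 42.4 and 27.8 CPM. The log2 fold change was 1.59 (SE 0.20) (adjusted p = 0.000445, edgeR), and the lowest APP-PS1 library was still above all WT libraries. Its adaptor Tyrobp (chromosome 7, 30413760 to 30417585) followed with 17.6, 17.1, 14.3, 18.2 and 20.03 CPM in WT and 49.2, 36.8, 38.7, 66.3 and 48.8 CPM in APP-PS1 mice (edgeR log2 fold change 1.58 with an SE of 0.20, adjusted p = 0.000742). For both genes replicate 4 was the highest and replicate 2 the lowest of the APP-PS1 libraries. Of 19 tested genes of Trem2 and Tyrobp signalling 10 were called higher and none lower, with a median log2 fold change of 0.65. The others named by the rule were Nckap1l (0.72), a subunit of the actin-regulating WAVE complex of blood cells, Laptm5 (0.89), a lysosomal membrane protein, Dock2 (0.75), which activates the GTPase Rac, and Inpp5d (0.71), the lipid phosphatase SHIP1. Without APP-PS1 replicate 4 the list had 6 calls, and with no sex covariate 4.

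Other members of the disease-associated list were the secreted proteins and surface markers of phagocytes. Ccl6, a chemokine, was at 3, 2.17, 1.91, 1.99 and 1.77 CPM in WT and 11.9, 8.37, 8.95, 12.5 and 10.8 CPM in APP-PS1 mice (edgeR log2 fold change 2.50 with an SE of 0.24, adjusted p = 2.84e-05). Ccl3, which attracts leukocytes, went from 0.316, 0.217, 0.202, 0.381 and 0.281 CPM to 2.54, 1.31, 1.92, 2.44 and 1.49 CPM (edgeR log2 fold change 2.95 with an SE of 0.32, adjusted p = 0.000129). Neither chemokine overlapped between the groups, although Ccl3 stayed under 3 CPM in every library. Lyz2, the lysozyme of phagocytes (log2 fold change 1.74), and Cd52, a small surface glycoprotein of leukocytes (1.49), also rose. Apoe, the lipid carrier often raised in such microglia, did not pass: it lay at 1353, 1320, 1312, 1141 and 1477 CPM in WT and 1253, 1443, 1100, 1670 and 1180 CPM in APP-PS1 mice, an edgeR log2 fold change of 0.02 with an SE of 0.11 (adjusted p = 0.957). Its groups overlapped almost completely, with the highest and the lowest of all 10 libraries both in APP-PS1 mice.

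No marker of homeostatic microglia was called lower. Of 16 members tested 7 were called higher (43.8%) and none lower, all 16 estimates were above 0, and the median was 0.46. Csf1r, the receptor for the growth factors on which microglia depend, was at 123, 121, 109, 112 and 113 CPM in WT and 159.7, 154, 161, 193 and 147 CPM in APP-PS1 mice (edgeR log2 fold change 0.59 with an SE of 0.10, adjusted p = 0.0062). All APP-PS1 libraries were above all WT libraries. Fcrls (0.99), Gpr34 (1.03), Tgfbr1 (0.47), the receptor kinase for TGF-beta, and Cx3cr1 (0.57), the receptor for the neuronal chemokine fractalkine, rose too. P2ry12, a purine receptor known to be reduced in microglia at plaques, lay at 53.2, 57.8, 48, 62.1 and 55.9 CPM in WT and 70.2, 64.4, 74.8, 71 and 72.8 CPM in APP-PS1 mice. Its groups did not overlap, yet it missed the threshold (edgeR log2 fold change 0.39 with an SE of 0.10, adjusted p = 0.0682). Tmem119, a membrane protein specific to microglia, was at 25.2, 27.8, 22.8, 24.9 and 21.6 CPM in WT and 21, 22.4, 19.4, 30.1 and 25.6 CPM in APP-PS1 mice, with an adjusted p of 0.734 in edgeR and an estimate of 0.11 (SE 0.11) that has the opposite sign to the difference of the means, 24.4 ± 2.39 against 23.7 ± 4.24 CPM (WT against APP-PS1, SD, n = 5). Aif1, which encodes IBA1, had 6.37 ± 0.692 CPM in WT and 7.92 ± 1.14 CPM in APP-PS1 mice (log2 fold change 0.40, adjusted p = 0.185, edgeR). With no sex covariate 4 of the 16 passed.

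**Figure D2:**
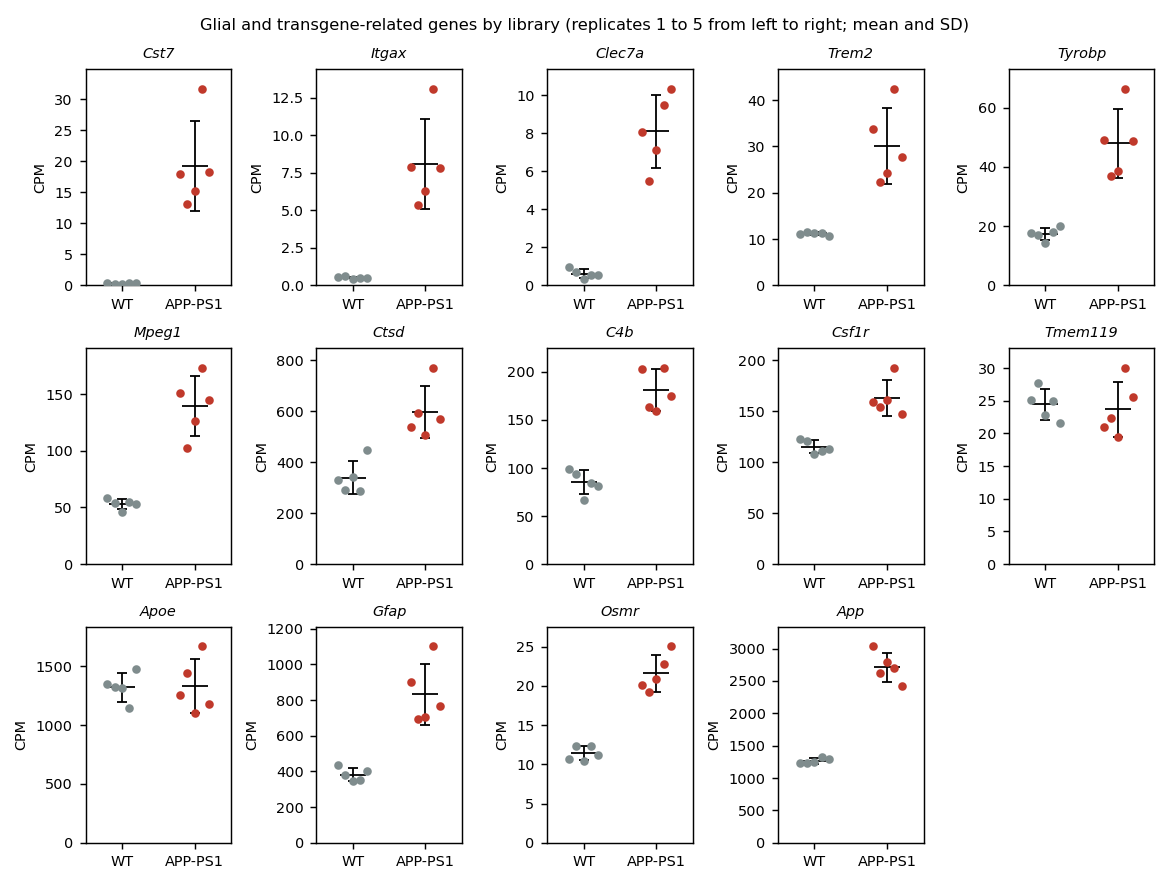
Levels of 14 genes in CPM (linear axes from 0) in each of the 5 WT (grey) and 5 APP-PS1 libraries (red), with replicates 1 to 5 from left to right and bars for the mean and SD. For 12 genes no APP-PS1 library falls within the WT range, and Tmem119 and Apoe overlap.

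Genes of the lysosome rose in part. Of 20 proteases and inhibitors tested 5 were called higher and none lower, with a median of 0.25, and of 26 membrane proteins and hydrolases 8 and none, with a median of 0.15. Ctsd, the aspartic protease cathepsin D, had the highest level of these calls, at 331, 289.7, 344, 286 and 447 CPM in WT and 538, 594, 509, 772 and 572 CPM in APP-PS1 mice (edgeR log2 fold change 0.88 with an SE of 0.19, adjusted p = 0.0286). The groups did not overlap, but the highest WT library (replicate 5) came close to the lowest of APP-PS1 (replicate 3), and the call was lost without WT replicates 1, 2, 3 or 4 or APP-PS1 replicates 2 or 4. Cd68, a glycoprotein of macrophage lysosomes, was at 8.79, 7.94, 7.39, 8.01 and 7.51 CPM in WT and 22.2, 15.7, 20.5, 30.6 and 22 CPM in APP-PS1 mice (edgeR log2 fold change 1.66 with an SE of 0.20, adjusted p = 0.000435). Mpeg1, the pore-forming perforin-2 of phagocytes, went from 58, 53.8, 46.2, 55.2 and 52.6 CPM to 151, 102, 126, 173 and 144 CPM (edgeR log2 fold change 1.53 with an SE of 0.16, adjusted p = 0.000105). The WT libraries of both genes lay close together and the APP-PS1 libraries spread more widely, with replicate 2 the lowest and replicate 4 the highest.

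Among the other proteases Ctss, cathepsin S (0.99), Ctsz (0.79) and the rare Ctse (3.57, 0.0644 ± 0.0533 against 0.593 ± 0.386 CPM, WT against APP-PS1, SD, n = 5) passed, while Ctsh had an estimate of 0.56 (adjusted p = 0.0595, edgeR). Ctse lost its call without APP-PS1 replicate 4, and Ctsz without WT replicates 1, 2, 3 or 4 or APP-PS1 replicates 1, 2 or 4. In the list of hydrolases and membrane proteins Hexa, a lysosomal hydrolase (0.43), and Man2b1, a lysosomal mannosidase (0.45), rose. Cd84 (1.25), counted in this list too, is a cell surface receptor that is counted again among the signalling lymphocytic activation molecules below. The protease list held between 2 calls (without APP-PS1 replicate 4) and 9 calls (without WT replicate 5) when single libraries were left out, and it moved by more than 1.5 times also without WT replicate 1, 2, 3 or 4 or APP-PS1 replicate 2.

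Complement genes rose on the side of the first steps and of the receptors. Of 18 tested 8 were called higher and none lower, with a median of 0.53. C4b, a component of the classical pathway made by astrocytes and microglia, was at 99.4, 93.6, 67.1, 84.4 and 81.8 CPM in WT and 204, 163, 159.8, 204 and 175 CPM in APP-PS1 mice (edgeR log2 fold change 1.25 with an SE of 0.17, adjusted p = 0.00102). C3ar1, the receptor for C3a, was at 4.68, 2.83, 3.15, 3.94 and 4.33 CPM in WT and 11.1, 7.03, 8.37, 12.2 and 9.05 CPM in APP-PS1 mice (edgeR log2 fold change 1.44 with an SE of 0.20, adjusted p = 0.00102). All APP-PS1 libraries were above all WT libraries for both. The 3 chains of C1q, which starts the classical pathway, moved alike, with log2 fold changes of 0.97 (C1qa), 0.85 (C1qb) and 0.83 (C1qc). Itgb2 (0.98), the beta chain of the complement receptor CR3, was the other member of smallest p. C4b has a near-identical neighbour in the mouse genome, so its reads may be shared between copies. Complement calls fell to 3 with no sex covariate.

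Receptors for antibodies and microbial ligands formed another group. Of 10 Fc receptor and antibody binding genes 5 were called higher and none lower (median 0.90), and of 22 Toll-like and C-type lectin receptor genes 9 and none (median 0.53). Fcgr2b, the inhibitory receptor for IgG, was at 6.45, 5.66, 4.21, 5.89 and 5.34 CPM in WT and 14.2, 10.3, 12.1, 16 and 13.5 CPM in APP-PS1 mice (edgeR log2 fold change 1.45 with an SE of 0.20, adjusted p = 0.00139). The activating receptor genes Fcgr3 (0.95), Fcer1g, their shared signalling chain (0.95), and Fcgr1 (0.85) passed as well. Fcgr1 kept its call in 1 of 10 fits that each left out 1 library, that without WT replicate 5. Because these receptors share sequence, reads may be split between them.

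Tlr7, a sensor of single-stranded RNA on the X chromosome, was at 8.91, 7.36, 7.48, 6.82 and 6.44 CPM in WT and 13.6, 11, 14.6, 18.3 and 14.6 CPM in APP-PS1 mice (edgeR log2 fold change 1.17 with an SE of 0.15, adjusted p = 0.000704). No library overlapped, and WT replicate 1 and APP-PS1 replicate 4 were the highest of their groups. Ly86, the MD-1 protein that binds the Toll-like relative CD180 (1.18), Cd14, a co-receptor for lipopolysaccharide (1.31), Clec5a (0.86) and Tlr1, which pairs with Toll-like receptor 2 (1.49), also rose. Of 14 leukocyte integrin genes 4 were called higher and none lower (median 0.36): Itgax, Itgb2, Itgam (0.58) and Itgb3 (0.82), the last of which lost its call without WT replicates 1, 2, 3 or 4 or APP-PS1 replicates 1, 3, 4 or 5.

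Signalling lymphocytic activation molecules (SLAM) and inhibitory receptors had the highest median of the 49 lists in the reported fit. Of 23 tested 11 were called higher (47.8%) and none lower, all 23 estimates were above 0, and the median was 0.94. The rank was not kept in every setting. Without the 5 libraries above 1000 CPM of Ttr the median was 1.14, below the 1.38 of disease-associated microglia. With the choroid plexus level as a covariate the 2 medians were 0.88 and 0.94. Ly9, a SLAM receptor, was at 0.98, 0.362, 0.433, 0.805 and 0.506 CPM in WT and 2.81, 2.19, 2.3, 4.45 and 2.82 CPM in APP-PS1 mice (edgeR log2 fold change 2.54 with an SE of 0.29, adjusted p = 0.000195). The gene was rare in WT mice and APP-PS1 replicate 4 stood apart above the rest of its group. Havcr2, the inhibitory receptor TIM-3, was at 4.8, 5.15, 4.82, 5.08 and 4.72 CPM in WT and 8.6, 6.68, 8.45, 11.6 and 7.73 CPM in APP-PS1 mice (edgeR log2 fold change 0.94 with an SE of 0.14, adjusted p = 0.00247). The WT libraries of Havcr2 lay within a narrow band below every APP-PS1 library. Cd84 (1.25), Cd48 (1.35), Slamf9 (1.37) and Vsir, the checkpoint protein VISTA (0.90), were the other members of smallest p.

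Some of these genes are known from T cells, and T cell markers were near the detection limit. Of 21 genes of T cells and cytotoxic cells 8 had enough counts to be tested and 0 passed in edgeR (1 at an unadjusted p under 0.05, 0 in DESeq2); Cd3d, Cd3e, Cd3g and Cd8b1 were among the 13 that were not tested. The summed level of the list lay between 5.23 and 5.95 CPM in WT and between 5.4 and 7.17 CPM in APP-PS1 mice. Cd8a had 0.21 ± 0.11 CPM in WT and 0.299 ± 0.15 CPM in APP-PS1 mice (adjusted p = 0.669, edgeR). None of the 7 B cell and plasma cell genes, the 7 genes of neutrophils and blood or the 13 genes of border macrophages and monocytes tested passed either, and their medians were 0.03, 0.19 and 0.29. Leaving out 1 library moved these medians between -0.08 and 0.16 (B cells), between -0.36 (without APP-PS1 replicate 4) and 0.29 (neutrophils and blood) and between 0.14 and 0.44 (border macrophages). At an unadjusted p under 0.05 in edgeR these 3 lists held 2, 0 and 1 genes, and DESeq2 called 1 of the B cell genes. Of the border macrophage genes 12 had a higher estimate, with summed levels of 34.3 to 55.5 CPM in WT and 29.7 to 60.4 CPM in APP-PS1 mice.

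Chemokines, cytokines and antigen presentation held fewer calls. Of 21 chemokine and receptor genes 4 were called higher and none lower (Ccl6, Ccl3, Ccl4 at 2.50 and Cx3cr1), and Cx3cl1, the neuronal ligand of the latter, had an estimate of -0.22 (adjusted p = 0.0642, edgeR). Of 21 cytokine and inflammasome genes 2 were called higher, Csf3r, the receptor for G-CSF (1.15), and Csf2rb, the shared chain of the GM-CSF receptor (0.84). The cytokine genes Il1rn, Il6, Il12b, Tnf and Osm had too few counts to be tested. Csf2rb lost its call without WT replicates 1 or 3 or APP-PS1 replicate 4. Of 34 interferon response genes 0 passed in edgeR (13 had an unadjusted p under 0.05, and DESeq2 called 2), 32 had a higher estimate and the median was 0.46; Ifi204 (1.42, adjusted p = 0.0677) and Trim30a (0.75, adjusted p = 0.0768) were closest. Without the 5 libraries above 1000 CPM of Ttr the median was 0.22.

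B2m, the constant chain of MHC class I, was at 103, 89.8, 80.5, 106 and 95.7 CPM in WT and 141, 142, 121, 155 and 154 CPM in APP-PS1 mice (edgeR log2 fold change 0.66 with an SE of 0.13, adjusted p = 0.0138). All APP-PS1 libraries were above the highest WT library. Of 16 genes of MHC class I presentation B2m and H2-D1 (0.53) were called higher and none lower (median 0.31). However, H2-D1 lost its call without WT replicates 2, 3 or 4 or APP-PS1 replicates 1, 2 or 4. H2 genes share sequence with each other, and their reads may be split. Of 12 genes of MHC class II presentation the protease Ctss and the co-stimulator Cd86 (0.92) passed, neither of which is a class II chain. Cd74, the invariant chain, had an estimate of 1.00 (adjusted p = 0.384) and H2-DMb1 of 0.39 (adjusted p = 0.487, both edgeR). The class II genes H2-Oa (1.24) and H2-Ob (1.1), which are not in the list and are named after their values were seen, were called higher with overlapping groups, and kept the call in 2 and 4 of the 10 fits that left out 1 library.

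Among 15 cell cycle genes 1 passed. Top2a, a topoisomerase of dividing cells, was at 0.443, 0.689, 0.722, 1.02 and 0.872 CPM in WT and 1.22, 1.27, 1.92, 2.29 and 1.82 CPM in APP-PS1 mice (edgeR log2 fold change 1.25 with an SE of 0.24, adjusted p = 0.0143). It was low in all libraries, did not overlap, and lost its call without APP-PS1 replicate 4. Mki67, another marker of division, had an estimate of 0.26 (adjusted p = 0.52) and Cenpf one of 0.52 (adjusted p = 0.374, both edgeR). The median of the list was 0.08.

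Of the genes past the test that belong to none of the 49 lists, the 15 of smallest p were all higher. Lists were matched by gene symbol, so a list member annotated under another symbol would count as outside them. Besides Lamr1-ps1 and the protein-coding gene model Gm49339 (2.50) they included Slc11a1, a metal transporter of phagosomes (1.52), Cd53, a tetraspanin of leukocytes (0.81), Gm8995 (1.26), Ptprc, which encodes the leukocyte phosphatase CD45 (1.26), and Tnfsf8, the ligand of CD30 (3.06). Further down were Rgs1, a regulator of G protein signalling (1.80), Asb10 (2.39), Cybb, the catalytic subunit of the phagocyte NADPH oxidase (1.56), Slc15a3, a lysosomal peptide transporter (1.5), Traf3ip3 (1.02), Plek, or pleckstrin (1.05), and Cd200r4 (4.42). Asb10, Rgs1 and Cd200r4 had means under 1 CPM in both groups. All 15 kept an adjusted p under 0.05 in each of the 10 fits that left out 1 library. St14, which encodes the membrane protease matriptase (1.66), was the only other gene outside the lists among the 20 largest increases with a mean of at least 1 CPM.

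Genes called higher often lay side by side. Of the 178 genes, 43 fell into 18 groups within 200 kb of each other. On chromosome 1 these were Fcgr2b, Fcgr3 and Fcer1g (170958617 to 171234365, 3 of 10 genes tested there) and Ly9, Cd48 and Cd84 (171588624 to 171890718, 3 of 5). On chromosome 11 Ccl6, Ccl3, Ccl4 and Wfdc17 made up 4 of 5 genes tested between 83587882 and 83706268, and on chromosome 4 C1qa, C1qb and C1qc were all 3 genes tested between 136880129 and 136898803. Itgam and Itgax on chromosome 7 (128062640 to 128150657) and Naip2, Naip5 and Naip6, sensors of bacterial proteins on chromosome 13 (100144063 to 100317674), were likewise the only genes tested in their spans. The Naip genes are near-copies of each other, so that reads may be shared. Naip5 kept its call in 4 and Wfdc17 in 2 of the 10 fits that left out 1 library. No count of neighbours expected by position was made.

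The transcription factor PU.1, encoded by Spi1, is needed for the development of microglia and binds purine-rich sites in promoters of myeloid genes. Spi1 itself was at 2.14 ± 0.309 CPM in WT and 3.19 ± 0.697 CPM in APP-PS1 mice (SD, n = 5; log2 fold change 0.69 (SE 0.15), adjusted p = 0.0347, edgeR), and the call was lost without WT replicates 1, 2, 3 or 4 or APP-PS1 replicates 1, 2, 4 or 5. Spi1 and Vav1 are named here after their values were seen. The sequence GAGGAAGT was searched on both strands from 250 bases before to 50 bases after the start site in RefSeq promoters (GRCm38.p6). A gene was counted when any of its promoters held a match. This was so for 15 of the 131 genes called higher that had a promoter (11.5%). The share was 3.41% of 12902 genes tested with a promoter, 3.69% of all 27025 genes with a promoter and 0 of 8 genes called lower. In the disease-associated microglia list 1 of 25 genes with a promoter held it (4.0%), close to the share of all genes with a promoter. The first 5 promoters below are a choice among the genes with a match. Other genes named in the text hold one too and are not shown, such as Ctss, Cd53, Slamf9 and Traf3ip3. The promoter of Cst7 is added because Cst7 rose most of the genes with a promoter shown. The 250 bases before the start site are given 5′ to 3′ on the strand of the gene, with the match in capitals, as GAGGAAGT or, on the other strand, ACTTCCTC.
Tlr1 (chr5:64933559-64933808, minus strand): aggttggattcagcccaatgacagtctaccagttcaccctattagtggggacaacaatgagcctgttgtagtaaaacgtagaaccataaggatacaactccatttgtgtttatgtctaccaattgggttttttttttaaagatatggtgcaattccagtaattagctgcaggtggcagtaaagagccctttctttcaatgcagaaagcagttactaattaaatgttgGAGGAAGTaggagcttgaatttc
Inpp5d (chr1:87620062-87620311, plus strand): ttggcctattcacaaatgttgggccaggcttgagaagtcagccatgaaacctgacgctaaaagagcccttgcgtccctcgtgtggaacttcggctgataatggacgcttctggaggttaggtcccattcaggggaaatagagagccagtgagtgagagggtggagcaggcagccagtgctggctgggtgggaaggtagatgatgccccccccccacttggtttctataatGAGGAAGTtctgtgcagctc
Vav1 (chr17:57278850-57279099, plus strand): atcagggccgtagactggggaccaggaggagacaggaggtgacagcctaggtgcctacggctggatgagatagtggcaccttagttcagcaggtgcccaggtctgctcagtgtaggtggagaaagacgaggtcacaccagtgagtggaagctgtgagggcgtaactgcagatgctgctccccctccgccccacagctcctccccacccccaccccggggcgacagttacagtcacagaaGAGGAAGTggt
Havcr2 (chr11:46454681-46454930, plus strand): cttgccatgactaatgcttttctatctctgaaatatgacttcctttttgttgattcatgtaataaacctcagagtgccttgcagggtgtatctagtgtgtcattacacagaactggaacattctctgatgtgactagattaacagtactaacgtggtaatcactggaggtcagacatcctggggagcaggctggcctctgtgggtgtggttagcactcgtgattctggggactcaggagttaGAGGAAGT
C1qc (chr4:136892915-136893164, minus strand): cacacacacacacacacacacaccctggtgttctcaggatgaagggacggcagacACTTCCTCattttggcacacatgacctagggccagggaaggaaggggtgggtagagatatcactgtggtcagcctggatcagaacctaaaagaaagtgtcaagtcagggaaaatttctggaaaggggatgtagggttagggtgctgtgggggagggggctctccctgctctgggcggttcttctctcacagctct
Cst7 (chr2:150570165-150570414, plus strand): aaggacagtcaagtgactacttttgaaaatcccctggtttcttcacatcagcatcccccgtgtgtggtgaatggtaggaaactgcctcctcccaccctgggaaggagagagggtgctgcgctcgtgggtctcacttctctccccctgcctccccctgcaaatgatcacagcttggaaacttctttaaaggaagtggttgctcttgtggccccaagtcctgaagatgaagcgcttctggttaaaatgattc
The matches began 23 (Tlr1), 20 (Inpp5d), 11 (Vav1), 8 (Havcr2) and 195 (C1qc) bases before the start site, and the Cst7 stretch held none. Vav1, an activator of Rac, had a log2 fold change of 0.69 (SE 0.14) and lost its call without WT replicates 1 or 4 or APP-PS1 replicate 4. A match describes the letters of the promoter and was not tested as a binding site. The interferon-stimulated response element was found in 6.11% of the genes called higher with a promoter against 3.74% of genes tested, and in 14 of 24 genes of the interferon response list (58.3%). TCACGTGA, the type bound by the lysosomal regulators TFEB and MITF, was found in 2.29% and 1.91%, respectively.

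**Figure D3:**
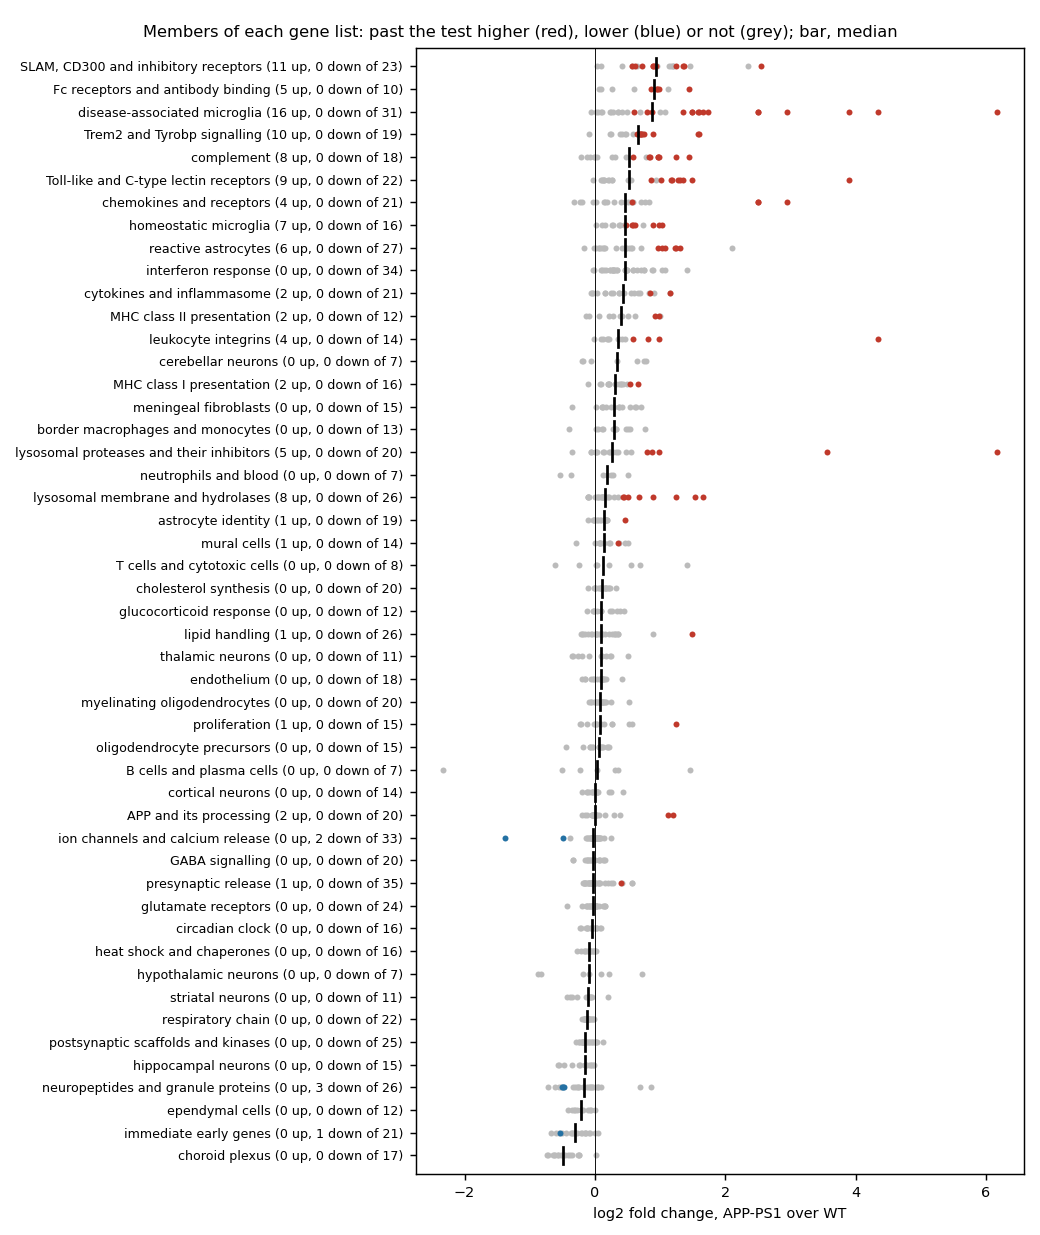
Log2 fold change (edgeR) of every tested member of the 49 gene lists, 1 row per list in the order of the median (black bar), with genes called higher in red, called lower in blue and the rest in grey; brackets give calls higher and lower of the members tested. The SLAM and inhibitory receptor list is at the top with a median of 0.94 and the choroid plexus list at the bottom with -0.49, none of whose 17 members passed.

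Astrocytes showed a part of the reactive profile. Of 27 reactive astrocyte genes tested 6 were called higher and none lower, 25 had a higher estimate, and the median was 0.46. Gfap, the intermediate filament that marks reactive astrocytes, was at 434, 379, 348, 353 and 400.2 CPM in WT and 902, 692, 704, 1102 and 767 CPM in APP-PS1 mice (edgeR log2 fold change 1.23 with an SE of 0.14, adjusted p = 0.000292). Osmr, the receptor for oncostatin M, was at 10.7, 12.3, 10.4, 12.3 and 11.2 CPM in WT and 20.2, 19.2, 20.8, 22.8 and 25.1 CPM in APP-PS1 mice (edgeR log2 fold change 1.03 with an SE of 0.09, adjusted p = 1.3e-05). Both groups were tight for Osmr and did not overlap for either gene. C4b, Cd14, Ggta1 (0.96) and Aspg (1.07) also passed, of which C4b and Cd14 are made by microglia too, and Aspg lost its call without APP-PS1 replicate 4. Serpina3n, a protease inhibitor of reactive astrocytes, had an estimate of 0.52 and groups that did not overlap, but an adjusted p of 0.119 in edgeR.

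Markers that define astrocytes regardless of state moved little. Of 19 tested only Aqp4, the water channel of astrocyte endfeet, passed, and the median was 0.13. Aqp4 was at 207, 204, 193, 214 and 240.3 CPM in WT and 271, 272, 298, 282 and 343 CPM in APP-PS1 mice (edgeR log2 fold change 0.46 with an SE of 0.10, adjusted p = 0.0459). The groups did not overlap, and the call was lost without WT replicates 1, 2, 3 or 4 or APP-PS1 replicates 2, 3, 4 or 5. The glutamate transporter genes Slc1a2 and Slc1a3 had estimates of 0.17 (adjusted p = 0.353) and 0.16 (adjusted p = 0.429, both edgeR).

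Vessels, myelin and metabolism held almost no calls. None of 18 endothelial, 15 meningeal fibroblast, 20 myelinating oligodendrocyte, 15 oligodendrocyte precursor, 12 ependymal or 17 choroid plexus genes passed, and of 14 mural cell genes Atp13a5, a marker of pericytes, passed (0.35, overlapping groups, lost without WT replicates 1, 2, 3, 4 or 5 or APP-PS1 replicates 2 or 5). The choroid plexus list had the lowest median in the reported fit, -0.49, with summed levels of 268 to 11300 CPM in WT and 316 to 7360 CPM in APP-PS1 mice. Unadjusted p values under 0.05 in edgeR numbered 1 (endothelium), 0 (fibroblasts), 1 (myelin), 3 (precursors), 0 (ependyma) and 0 (choroid plexus), and DESeq2 called 1 of the myelin genes. The wide range follows the 4 libraries rich in Ttr, and the median turned with single libraries: it was 0.20 without WT replicate 3, 0.29 without WT replicate 5, -1.94 without APP-PS1 replicate 5 and -0.20 without all Ttr-rich libraries. With the choroid plexus level as a covariate the median was -0.03, and 179 genes in all were called higher and 31 lower. All 22 respiratory chain genes had a lower estimate with a median of -0.12 and none passed in edgeR or DESeq2 (7 had an unadjusted p under 0.05 in edgeR); Sdhb, a subunit of complex II, was the closest (-0.15, adjusted p = 0.276, edgeR). The 20 cholesterol synthesis genes had a median of 0.10 and the 26 lipid handling genes one of 0.09, and in the latter Ch25h, which makes 25-hydroxycholesterol, passed (1.5), but not without WT replicates 2 or 4 or APP-PS1 replicate 4. Heat shock, clock and glucocorticoid genes held no call in edgeR or DESeq2 (0, 2 and 0 at an unadjusted p under 0.05 in edgeR, with medians of -0.08, -0.05 and 0.10).

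Few genes were called lower, and neuropeptides led them. Of 26 neuropeptide and granule protein genes 3 were called lower and none higher (against 0.0896% of all genes tested called lower), with a median of -0.18. Npy, neuropeptide Y, made by a class of inhibitory neurons, lies at chromosome 6, 49822710 to 49829507. It was at 34.7, 31.6, 30.2, 35 and 30.4 CPM in WT and 22.6, 21.1, 24, 25 and 20.3 CPM in APP-PS1 mice (edgeR log2 fold change -0.49 with an SE of 0.07, adjusted p = 0.00168). Every APP-PS1 library was below every WT library, and both groups were tight. Crhbp, which binds the stress peptide CRH and is found in part of the same neurons, was at 29.3, 29.4, 28.7, 31.9 and 24.4 CPM in WT and 20.4, 19.4, 20.6, 22.6 and 18 CPM in APP-PS1 mice (edgeR log2 fold change -0.47 with an SE of 0.08, adjusted p = 0.00723).

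Sst, the peptide somatostatin, which many Npy neurons also make, had 104, 116, 106, 99 and 87.3 CPM in WT and 63.2, 64.2, 52.7, 89.8 and 65 CPM in APP-PS1 mice. Its estimate of -0.56 (SE 0.14) was larger than that of Npy, but APP-PS1 replicate 4 reached into the WT range and the adjusted p was 0.0951 in edgeR. Vgf, the precursor of several secreted peptides, was at 63.6, 74.5, 76, 71.4 and 64.5 CPM in WT and 55.5, 50.1, 41.5, 58.4 and 43.6 CPM in APP-PS1 mice (edgeR log2 fold change -0.50 with an SE of 0.11, adjusted p = 0.0436). Vgf did not overlap, and its call was lost without WT replicates 1, 2, 3 or 4 or APP-PS1 replicates 2, 3 or 5. It was also lost in the fit of only the 10 libraries of both groups. Penk, the enkephalin precursor, had an estimate of -0.52 (adjusted p = 0.0829) and Chga, a granule protein, of -0.25 (adjusted p = 0.141, both edgeR). Among 20 genes of GABA signalling none passed; Slc32a1, the vesicular GABA transporter, had an estimate of -0.34 without overlap (adjusted p = 0.0912) and Gad1, which makes GABA, -0.15 (adjusted p = 0.348, both edgeR). At an unadjusted p under 0.05 there were 3, and DESeq2 called 1, lower.

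Activity-induced genes had mostly lower estimates. Of 21 immediate early genes 19 had a lower estimate, with a median of -0.30, and 1 passed. Egr3, an activity-induced transcription factor of neurons, was at 21.7, 25.1, 23.7, 22.7 and 26.8 CPM in WT and 21.3, 15.6, 14.8, 19.7 and 13.6 CPM in APP-PS1 mice (edgeR log2 fold change -0.54 with an SE of 0.11, adjusted p = 0.0234). The groups only just separated, with APP-PS1 replicate 1 next to WT replicate 1, and the call was lost without WT replicates 2, 3 or 5 or APP-PS1 replicates 2 or 5. The Egr3 call was also lost in the fit of only the 10 libraries of both groups. Srf, the serum response factor, which drives many such genes and is in no list, was at 46.5, 53.7, 51.7, 51.6 and 50.8 CPM in WT and 44.7, 41.2, 39.6, 44.7 and 40.7 CPM in APP-PS1 mice (edgeR log2 fold change -0.25 with an SE of 0.05, adjusted p = 0.0239). It was lower in every APP-PS1 library, and its call was lost without WT replicates 2, 3, 4 or 5 or APP-PS1 replicates 2, 3 or 5. Srf did not pass in the fit of only the 10 libraries of both groups either. Arc, an activity-regulated synaptic protein, was at 96.2, 93.5, 99.4, 97.4 and 138 CPM in WT and 86.9, 64.8, 45.2, 64 and 100.2 CPM in APP-PS1 mice, and its adjusted p was 0.364 in edgeR (log2 fold change -0.56 with an SE of 0.23). Junb (-0.60, adjusted p = 0.26, groups apart), Npas4 (-0.50, adjusted p = 0.258) and Egr4 (-0.67, adjusted p = 0.284, all edgeR) did not pass either.

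Ion channels gave 2 further decreases. Of 33 ion channel and calcium release genes 2 were called lower and none higher (median -0.03). Ano2, a calcium-activated chloride channel, was at 3.44, 4.42, 3.7, 2.71 and 7.31 CPM in WT and 1.72, 2.44, 2.84, 1.86 and 1.16 CPM in APP-PS1 mice (edgeR log2 fold change -1.39 with an SE of 0.22, adjusted p = 0.00356). WT replicate 4 lay below APP-PS1 replicate 3, so the groups overlapped. The Ano2 call was lost with no sex covariate and without the 5 libraries above 1000 CPM of Ttr, among them WT replicate 5, the highest for Ano2. Ryr1, a calcium release channel of the endoplasmic reticulum, was at 42.6, 39.6, 33.7, 36.4 and 39 CPM in WT and 29.4, 25.6, 29.4, 23.5 and 29.3 CPM in APP-PS1 mice (edgeR log2 fold change -0.49 with an SE of 0.10, adjusted p = 0.029), with no overlap, and lost its call without WT replicates 1, 2 or 5 or APP-PS1 replicates 2 or 4.

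Git1, a scaffold protein of synapses and focal adhesions, was at 301, 310, 295, 301 and 316 CPM in WT and 234, 254, 231, 286 and 213 CPM in APP-PS1 mice (edgeR log2 fold change -0.32 with an SE of 0.07, adjusted p = 0.0459). The groups did not overlap, and it kept its call in 1 of the 10 fits that left out 1 library (without APP-PS1 replicate 4). Lingo3 (-0.37), Gm20501 (-0.79), Rasl11b (-0.28), Rhbdl3 (-0.34), Pip5k1b, a lipid kinase (-0.34), and Dgat2, an enzyme of triglyceride synthesis (-0.31), were further decreases at or above 1 CPM. Gm20501 is annotated at a bidirectional promoter, and without a stated strand setting its reads cannot be told from those of its neighbour. Fst, which encodes follistatin, was also called (-1.31) but had a mean under 1 CPM and was named after its values were seen. Of the 17 genes called lower, Npy, Crhbp and Ano2 passed in every fit that left out 1 library. Without the 5 libraries above 1000 CPM of Ttr, Crhbp and Ano2 lost their call and Npy kept it. In the fit of only the 10 libraries of both groups Git1, Rasl11b, Rhbdl3 and Fst lost their call, as did Egr3, Srf and Vgf.

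Synaptic lists held 1 call. Of 35 presynaptic release genes 1 was called, and it was higher: Rims1, a scaffold of the active zone, at 212, 238, 217, 221 and 201 CPM in WT and 302, 244, 293, 299.6 and 256 CPM in APP-PS1 mice (edgeR log2 fold change 0.41 with an SE of 0.07, adjusted p = 0.0103). All APP-PS1 libraries were above the WT range, and its relative Rims2 had an estimate of 0.28 without overlap (adjusted p = 0.0698, edgeR). None of 25 postsynaptic and 24 glutamate receptor genes passed in edgeR or DESeq2, and 11 and 2 of them had an unadjusted p under 0.05 in edgeR. Without APP-PS1 replicate 4, 3 postsynaptic genes were called lower. The 15 hippocampal, 14 cortical and 11 striatal neuron genes held no call either. Lower estimates were the more common in 5 of these 6 lists, by the widest margin in 3: 21 of 25 postsynaptic genes (median -0.15), all 15 hippocampal genes (median -0.15) and 10 of 11 striatal genes (median -0.11). Of the genes tested in all, 10074 of 18974 had a lower estimate. Rbfox3 had an estimate of -0.22 (adjusted p = 0.26, edgeR).

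**Figure D4:**
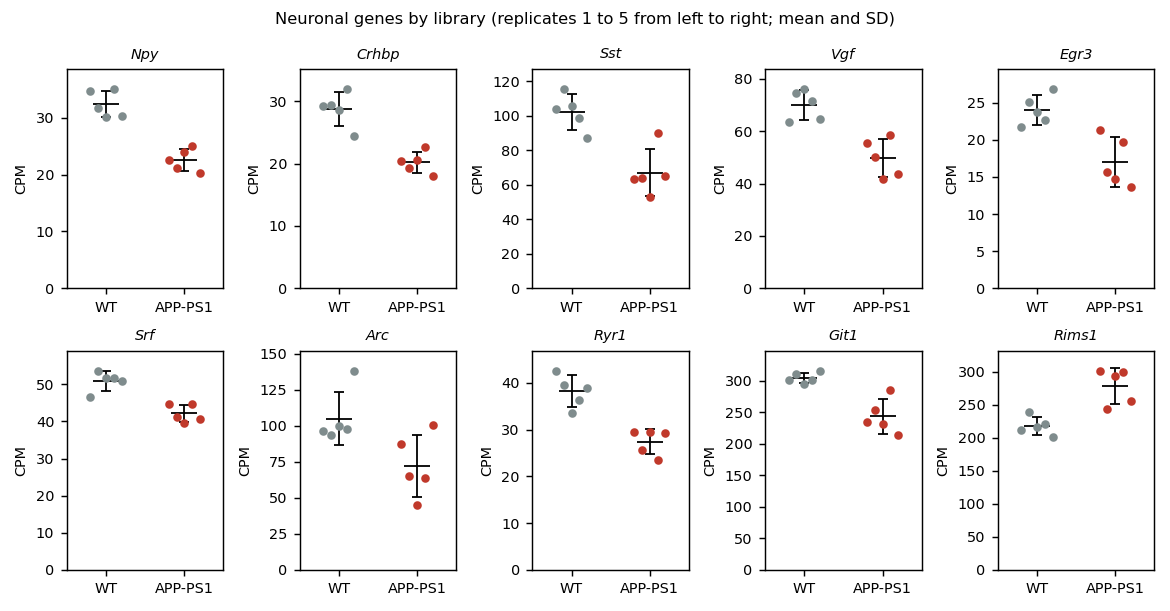
Levels of 10 neuronal genes in CPM (linear axes from 0) in each of the 5 WT (grey) and 5 APP-PS1 libraries (red), with replicates 1 to 5 from left to right and bars for the mean and SD. Npy, Crhbp, Vgf, Egr3, Srf, Ryr1 and Git1 are lower in every APP-PS1 library, Sst and Arc overlap, and Rims1 is higher in every APP-PS1 library.

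Among the genes called higher, the 5 APP-PS1 mice spread more widely than the WT mice. Over the 158 genes called higher with a mean of at least 1 CPM, the median coefficient of variation was 11.4% in WT and 16.5% in APP-PS1 mice, and it was larger in APP-PS1 mice for 103 genes. APP-PS1 replicate 4 was the highest of its group for 115 of the 178 genes called higher and for 20 of the 31 disease-associated microglia genes. APP-PS1 replicate 2 was the lowest for 98 and 16, respectively. Neither the spread nor these counts of the highest and lowest library were set beside those of all genes tested. Replicate 4 is labelled female and replicate 2 male. The 3 APP-PS1 libraries with Xist (replicates 1, 4 and 5) were all above the 2 with Y-linked genes for 69 of the 178 genes (38.8%) and for 11 of the 31 (35.5%), against 8.56% of all genes tested, and the reverse held for 2 of the 178 (1.12%, against 7.69% of all genes tested). With 3 mice against 2 no gene can go below a two-sided exact permutation p of 0.2, and no test was made.

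The 5 APP-PS1 mice given the antibody against CD8a, the third group of the study, are set beside these values with no test. Cst7 was at 22.3 ± 17.8 CPM (range 9.31 to 53.2, SD, n = 5) and Itgax at 10.4 ± 9.03 CPM (range 3.67 to 26). Trem2 was at 33.9 ± 14.7 CPM (range 22.6 to 59.2) and Gfap at 879.5 ± 249.5 CPM (range 688 to 1309). All of these ranges lay above every WT library. Npy was at 23.3 ± 1.23 CPM (range 22 to 25.2), below every WT library, and Ryr1 at 39.1 ± 5.43 CPM (range 31.8 to 44.7), Egr3 at 22.1 ± 1.73 CPM (range 19.4 to 24.2) and Arc at 130 ± 40.04 CPM (range 70.5 to 180.4), each reaching into the WT range.

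The labels' animal numbers fall into a series beginning with 83 (3 mice of each group) and one beginning with 85 (2 of each); what the series stand for was not given in the sources used here. Within the former alone 64 genes passed, all of them higher, and within the latter alone 2 passed, both higher: Cst7 and Itgax. With the series as a covariate there were 208 calls (181 higher and 27 lower). The disease-associated microglia list had a median log2 fold change of 1.38 in the first series and 0.61 in the second, and the immediate early genes one of -0.32 and -0.28. These fits kept labelled sex as a covariate. In the first series all 3 WT mice are labelled female, but of the APP-PS1 mice only replicate 4 is, and the male label of replicate 1 goes against its Xist level. The difference between the series was not tested. The bar plot of calls by setting gives these counts beside all others.

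**Figure D5:**
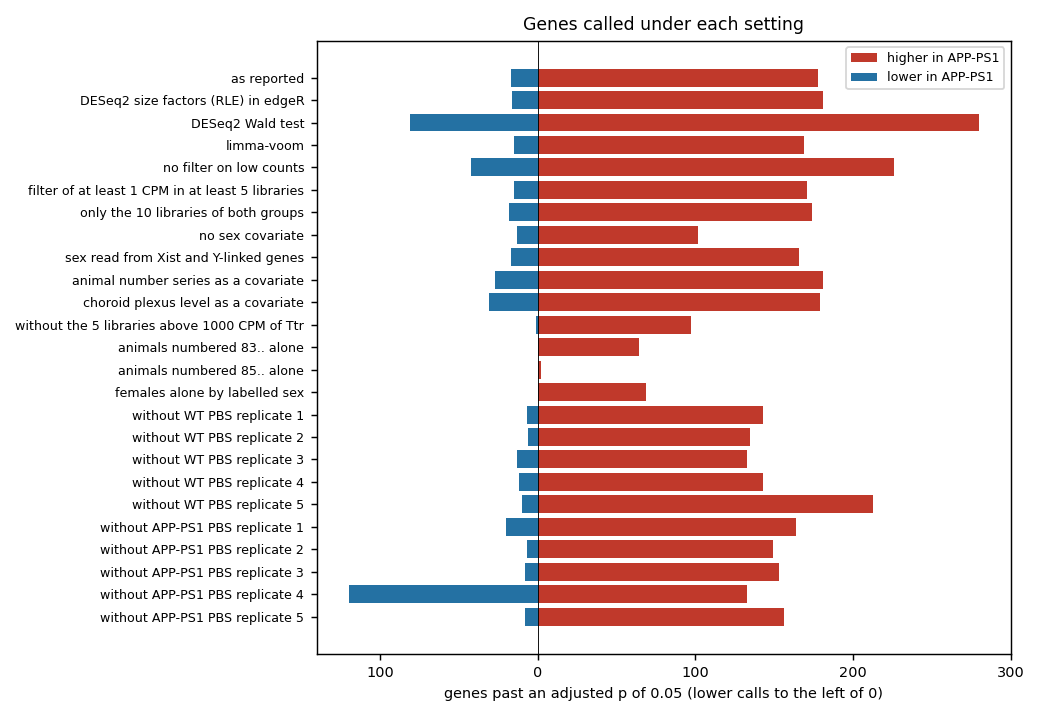
Number of genes past an adjusted p of 0.05 under the reported model (top bar) and 24 alternatives, with genes higher in APP-PS1 mice to the right of 0 (red) and lower to the left (blue). Higher calls outnumber lower ones in each, from 280 against 81 in DESeq2 to 2 against 0 for animals numbered 85.. alone.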

How the data were processed

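Poly(A) RNA of 1 dissected brain region per mouse was sequenced with a stranded kit for 75 cycles on a NextSeq500, per the labels' protocols. The authors deposited raw read counts for 46078 genes in 15 libraries. The submitters' processing notes name the aligner Bowtie2 2.2.2, the counter HTSeq 0.11.2, FastQC, DESeq2 and the build GRCm38, while annotation release and strand setting were not given in the sources used here. Bowtie2 does not split reads across introns, so reads over exon junctions can be lost and intronless copies of a gene can gain them. The 5 HTSeq summary lines, which name no gene, were left out, of which the largest, reads without a feature, held 20.3 to 25.1% of all entries counted in the 10 libraries. Symbols and places came from GENCODE M21 and matched 45229 genes (849 without).

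Groups were taken from the labels. Animal numbers name 1 mouse per library, and the counts of all 20 pairs within groups differed beyond sampling noise, with a chi-square of 7.30 to 35.8 for each degree of freedom. Counts were tested with edgeR 4.0.16 in R 4.3.3 (TMM scaling, filterByExpr, glmQLFit and glmQLFTest, two-sided) in 1 model of group and labelled sex over all 15 libraries, with 11 residual degrees of freedom and a Benjamini-Hochberg threshold of 0.05. CPM use TMM-scaled library sizes, and the SE is the log2 fold change divided by the square root of F. On simulated counts 10, 66, 82 and 98% of genes changed by factors of 1.2, 1.5, 2 and 4 were recovered. There were 7 false calls among the genes left unchanged, which were all but 200 of the 18974. The simulation held no sex effect, mislabelled library or choroid plexus difference, so it does not give the rate of false calls in these data. Alternatives were DESeq2 1.42.0, voom in limma 3.58.1, other scalings, filters and covariates, subsets of mice and leaving out each library.

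The genes named were the 20 largest increases and all decreases past the test with a mean of at least 1 CPM, up to 6 members of smallest p per list, a set of marker genes, and the 15 genes of smallest p in no list; a few genes that meet the rule are not reported here. The comparison, its members and the lists were chosen with earlier results of these data known, and no set test was made. Promoters are those of RefSeq (GRCm38.p6).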

Additional observations from a re-analysis of the deposited data

Results flagged for a closer look

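In 38 genes given library by library, the highest and the lowest library of each group of 5 was compared with its nearest neighbour. A gap above 0.71 of the range of the group was met in 3 of 76 groups, and chance alone gives about 1 in 20 groups. Cst7 was at 31.6 CPM in APP-PS1 replicate 4, with a gap of 0.718 of a range that begins at 13.1 CPM. In the same library Ly9 was at 4.45 CPM, with a gap of 0.723 of a range that begins at 2.19 CPM. In WT replicate 5 Arc was at 138.1 CPM, with a gap of 0.868 of a range that begins at 93.5 CPM. APP-PS1 replicate 4 was also the highest of its group for 115 of the 178 genes called higher, and WT replicate 5 was the highest of its group for 10 of the 17 genes called lower. Neither count was set beside that of all genes tested.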

How the results depend on the processing

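The 195 calls (178 higher, 17 lower) became 361 (280 and 81) in DESeq2, 115 (102 higher) with no sex covariate, 98 (97 and 1) without the 5 libraries above 1000 CPM of Ttr, 69 (69 and 0) in labelled females alone, and 64 (64 and 0) or 2 (2 and 0) in animals numbered 83.. or 85.. alone. Lower calls numbered 42 with no filter, 27 with the animal number series and 31 with the choroid plexus level as a covariate. When each library was left out in turn, the calls ranged from 141 to 253, the higher ones from 133 to 213 and the lower ones from 6 (WT replicate 2) to 120 (APP-PS1 replicate 4); lower calls were also more than 1.5 times fewer without WT replicate 1 or 5 or APP-PS1 replicate 2, 3 or 5. The subsets hold fewer mice, and the cause of the other differences was not tested. Of the 178 genes called higher, 102 passed in each of the 10 fits that left out 1 library, and 3 of the 17 called lower did. In all 23 alternatives other than animals numbered 85.. alone, 40 higher and 0 lower genes passed. The 100 named genes past the test kept their direction in all 2392 alternative fits and their side of the threshold in 1917. Of the 32 others, 4 changed sign: Cd8a (-0.35, animals numbered 85..), Tmem119 (-0.043 with no sex covariate and -0.042 in animals numbered 85..), Mbp (-0.041 in animals numbered 85.., and below 0 in 4 of the fits that left out 1 library, which ranged from -0.018 to 0.145) and Apoe (-0.001 with the series as covariate, -0.17 in animals numbered 85.., and below 0 in 3 of those fits, which ranged from -0.115 to 0.126). No paired analysis was made because the labels give no pairing of mice, and the replicate number only names a mouse. Genes under about 0.169 CPM rest on at most 3 counts in the shallowest library.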
